A study of Mus musculus with 6 samples.

Results

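The collecting duct is the last segment of the nephron system, and its epithelium holds principal cells, which take up sodium and water, and intercalated cells, which secrete acid or base. A total of 9 genes that mark these cells were taken by symbol from the 24532 genes of the deposited expression table. The 4 principal cell genes were Avpr2, the vasopressin V2 receptor, and Scnn1a, Scnn1b and Scnn1g, the alpha, beta and gamma subunits of the epithelial sodium channel. The 5 intercalated cell genes were Foxi1, a forkhead transcription factor needed for these cells to form, Atp6v1b1 and Atp6v0d2, subunits of the proton pump (V-ATPase), Slc4a1, the chloride-bicarbonate exchanger AE1, and Slc26a4, the exchanger pendrin. RNA was sequenced from mouse tissue at PN1 (postnatal day 1) in 6 libraries, with 2 from kidneys and 1 from ureter of Ahnak KO mice and the same numbers from WT mice. The tissue was taken from the source label, since the titles of the ureter samples name kidney. In the KO mice exon 5 of Ahnak, which encodes a very large scaffold protein, was disrupted, and RNA came from 2 to 4 organs, although the sources do not say how many went into one library. The methods speak of biological replicates, but no label ties a library to an animal, so p-values measure only the spread between these libraries. The column names of the ureter libraries share numbers with a kidney library of the same genotype. Whether these came from the same animals is not stated, and the tests of kidney against ureter treated all libraries as independent.

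Vasopressin acts on its V2 receptor at the basolateral side of principal cells and brings aquaporin 2 to the apical membrane, so that water leaves the urine. Aldosterone raises the activity of the sodium channel, which needs all of its subunits for full current. Type A intercalated cells pump protons into the urine and return bicarbonate to the blood through AE1, while type B cells release bicarbonate into the urine through pendrin. The ureter carries the urine on and is lined by urothelium over smooth muscle, and it has no collecting duct.

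The counts summed to between 55744703 and 66095616 in the kidney libraries, to 36410246 in the KO ureter and to 54985927 in the WT ureter. Ahnak, the targeted gene, had 8414 and 7744 counts in KO kidneys, 13058 and 11545 counts in WT kidneys, 18895 counts in the KO ureter and 37439 counts in the WT ureter. In kidney its log2 fold change of KO against WT was -0.47 (standard error 0.0961, adjusted p = 1.0, edgeR). In ureter its deposited TPM (a level corrected for gene length and library size) was 88.0 in the KO and 77.5 in the WT library. In CPM (counts scaled by library size and TMM factors) it ran the other way, with 635.3 in the KO and 727.3 in the WT library. The direction depended on the measure, so Ahnak did not settle the ureter labels. The KO ureter is therefore called the ureter library labelled KO below. Libraries also stood apart in other ways. KO kidney replicate 1 had 176348 counts of the X inactivation transcript Xist, against 17 to 36 counts in the other libraries. In the ureter library labelled KO the ribosomal RNA precursor Rn45s took 8.06% of counts, against 0.496% to 0.632% elsewhere. The tissue labels matched their markers. All 10 urothelium markers and all 8 smooth muscle markers tested were higher in ureter, and all of the 8 loop of Henle and distal tubule genes called, of 11 tested, were higher in kidney.

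The genes lie on 6 chromosomes of the mouse genome (GRCm38, GENCODE M21). Scnn1g (chr7:121734479-121768475, 13 exons) and Scnn1b (chr7:121865038-121918514, 13 exons) are neighbours on the plus strand with 96562 bases between them, and Scnn1b overlaps Cog7 on the other strand. Scnn1a lies at chr6:125320659-125344943 and Atp6v1b1 at chr6:83742990-83758855. Foxi1, a gene of 2 exons, lies at chr11:34204338-34208089 on the minus strand, as does Slc4a1 at chr11:102348824-102366203. Atp6v0d2 lies at chr4:19876841-19922605 and Slc26a4 at chr12:31519827-31559969, both on the minus strand. Avpr2 lies on the X chromosome (chrX:73892102-73895502) and overlaps L1cam and Arhgap4 on the other strand. The methods name a stranded kit, but the sources used here do not state that counting used strand, so the counts of overlapping genes are uncertain.

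Promoter sequence was at hand for 6 of the 9 genes (RefSeq, GRCm38.p6), and the stretch before the outermost annotated start is given for 5 of them, since for Avpr2 no bases of the window lie before that start. Of these, 3 are intercalated cell genes listed at 0 in ureter and 2 are the neighbouring channel subunits, shown because they were counted in both tissues. Each runs 5′ to 3′ on the strand of its gene, and capitals mark the forkhead core TAAACA on either strand.
Foxi1 (chr11:34208090-34208339, minus strand): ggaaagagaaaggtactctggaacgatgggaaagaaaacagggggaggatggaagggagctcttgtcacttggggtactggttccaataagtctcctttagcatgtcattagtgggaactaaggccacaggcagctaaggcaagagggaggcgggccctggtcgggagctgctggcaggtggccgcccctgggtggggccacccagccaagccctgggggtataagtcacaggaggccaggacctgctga
Atp6v1b1 (chr6:83742767-83742989, plus strand): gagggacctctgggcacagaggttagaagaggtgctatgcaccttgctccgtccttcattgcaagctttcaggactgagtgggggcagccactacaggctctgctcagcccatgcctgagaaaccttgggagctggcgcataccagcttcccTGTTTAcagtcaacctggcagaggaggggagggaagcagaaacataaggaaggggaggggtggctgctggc
Slc26a4 (chr12:31560056-31560234, minus strand): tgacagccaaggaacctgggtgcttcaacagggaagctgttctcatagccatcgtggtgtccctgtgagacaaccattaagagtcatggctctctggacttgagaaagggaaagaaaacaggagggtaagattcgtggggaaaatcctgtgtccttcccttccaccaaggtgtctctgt
Scnn1g (chr7:121734229-121734419, plus strand): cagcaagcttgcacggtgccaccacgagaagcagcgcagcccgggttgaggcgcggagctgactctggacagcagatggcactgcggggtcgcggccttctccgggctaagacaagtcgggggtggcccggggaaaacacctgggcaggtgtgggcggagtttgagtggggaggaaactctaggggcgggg
Scnn1b (chr7:121864788-121865037, plus strand): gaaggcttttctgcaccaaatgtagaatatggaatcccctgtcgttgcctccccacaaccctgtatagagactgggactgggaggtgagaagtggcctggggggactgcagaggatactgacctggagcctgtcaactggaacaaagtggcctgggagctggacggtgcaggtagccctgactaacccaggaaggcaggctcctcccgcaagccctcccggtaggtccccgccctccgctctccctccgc
The forkhead core was found once in these sequences, in Atp6v1b1. Of all 32851 promoter windows, 10.6% held it within the same distance, 223 bases, of the start. The short site of steroid receptors, AGAACA on either strand, was found once, in Slc26a4, and 11.4% of all windows held it within 179 bases of the start. Neither motif overlaps the other where found. A match of letters is a description and not a binding site.

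Kidney was compared with ureter over all 6 libraries, to ask which of these genes separate the tissues. Of the 9 genes, 8 were higher in kidney, and for these every kidney library lay above every ureter library. Avpr2, Foxi1, Atp6v1b1, Atp6v0d2 and Slc26a4 were listed at 0 in both ureter libraries. These genes passed the filter on counts through kidney alone, so they could only be called higher in kidney. A filter of at least 10 counts in every library removed them and left 3 calls. Scnn1a, Scnn1b and Slc4a1 were counted in ureter at a lower level, and Scnn1g did not pass the test. The call was an adjusted p under 0.05 (edgeR's quasi-likelihood test, genotype as a further term, Benjamini-Hochberg adjustment over all 16873 genes tested). Of all genes tested, 23.7% were called higher and 21.4% lower in kidney, 32.8% had all kidney above all ureter libraries and 5.16% were listed at 0 in both ureter libraries. The median of the 9 log2 fold changes, with genes at 0 set to their lower bound, was 5.33, against 0.08 over all genes. In bulk tissue, fewer cells of a type and less RNA per cell cannot be told apart.

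**Figure D1:**
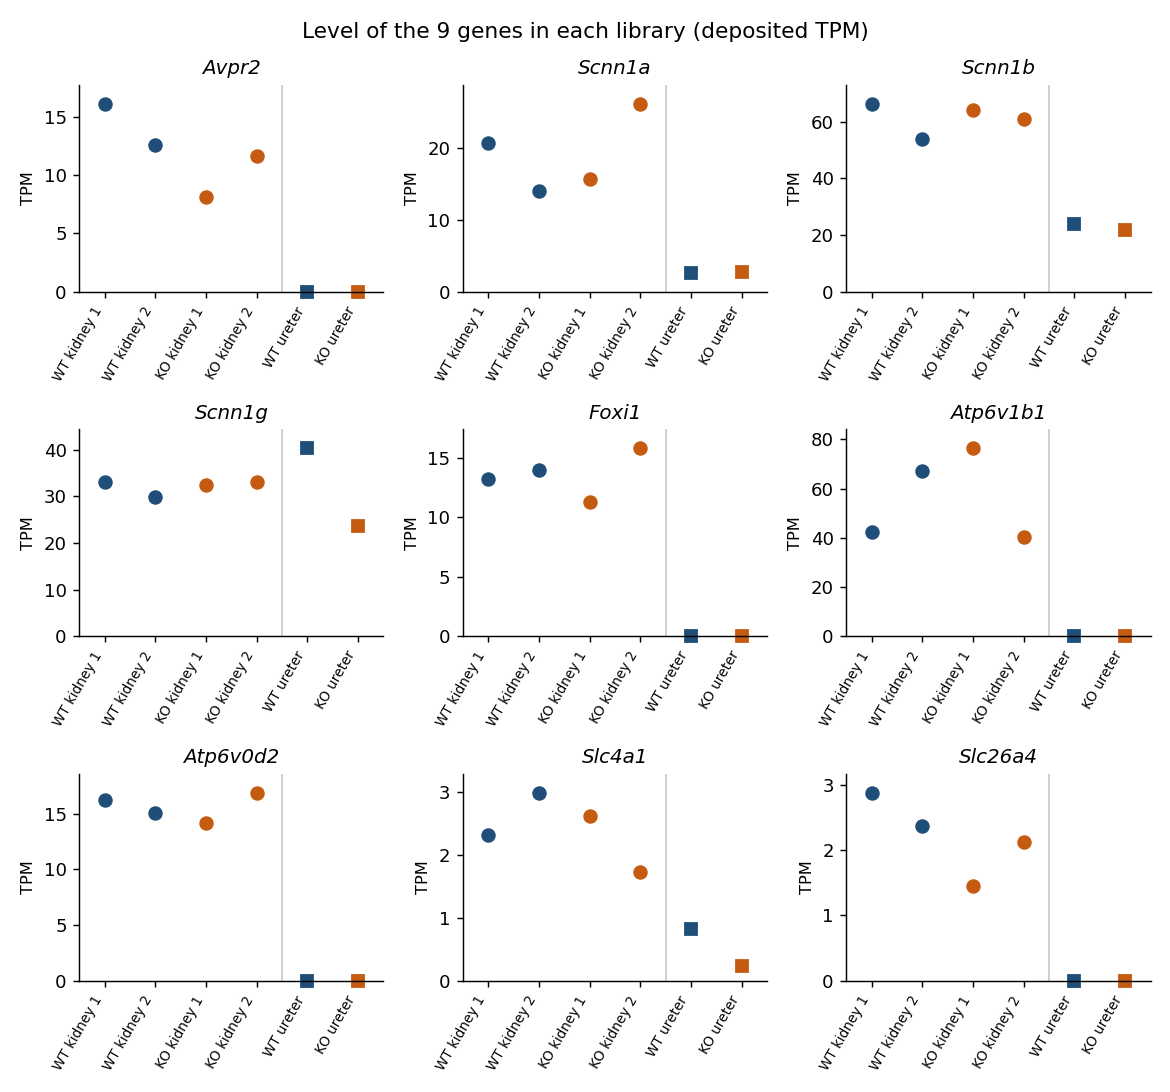
Deposited TPM (y axis, linear, from 0, own scale for each gene) of the 9 genes in each of the 6 libraries (x axis), with circles for kidney, squares for ureter, blue for WT and orange for KO. The 5 genes listed at 0 in ureter sit on the axis there, while Scnn1g lies between 23.6 and 40.3 TPM in ureter and between 29.8 and 33.2 TPM in kidney.

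Levels within kidney were compared between genes by TPM. Scnn1b had the highest mean, 61.4 ± 5.37 TPM (SD, n = 4), followed by Atp6v1b1 with 56.5 ± 18.0 TPM (SD, n = 4), and the ranges of these genes overlapped. Scnn1g came next with 32.1 ± 1.59 TPM (SD, n = 4), apart from both neighbours in the order. Scnn1a, Atp6v0d2, Foxi1 and Avpr2 followed with means of 19.2, 15.6, 13.6 and 12.1 TPM, and each overlapped the next in the order. Slc4a1 and Slc26a4 were lowest, with means of 2.42 and 2.21 TPM that overlapped, and lay apart from the rest. The spread over kidney libraries also differed between genes. In CPM (counts scaled by library size and TMM factors), the coefficient of variation was 6.06% for Scnn1g, 7.53% for Scnn1b and 9.30% for Atp6v0d2, but 30.9% for Atp6v1b1 and 30.6% for Scnn1a.

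Avpr2 had 413 and 596 counts in KO kidneys, 926 and 621 counts in WT kidneys and 0 counts in both ureter libraries. Its kidney mean was at least 126-fold higher than ureter, when each ureter library is set to 3 counts, the limit that a count of 0 allows (adjusted p = 0.000155). That limit covers counting error only and stood for 0.101 CPM in the library labelled KO and 0.0583 CPM in the WT library. Since the counts are estimates, a 0 is what the table lists and does not show that reads were absent.

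The sodium channel subunits did not share one pattern. Scnn1a had 1550 and 2629 counts in KO kidneys, 2393 and 1384 counts in WT kidneys, 190 counts in the ureter library labelled KO and 271 counts in the WT ureter. All kidney libraries lay above both ureter libraries, and the mean was 5.42-fold higher in kidney (log2 fold change 2.43, standard error 0.304, adjusted p = 0.00125, edgeR). Scnn1b had 4897 and 4746 counts in KO kidneys, 5918 and 4256 counts in WT kidneys, 1146 counts in the ureter library labelled KO and 1910 counts in the WT ureter. It was 2.07-fold higher in kidney (log2 fold change 1.05, standard error 0.112, adjusted p = 0.000657, edgeR), again with no overlap.

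Scnn1g had 2733 and 2850 counts in KO kidneys and 3272 and 2526 counts in WT kidneys. It had 1378 counts in the ureter library labelled KO and 3563 counts in the WT ureter. In CPM the library labelled KO, at 46.3, fell within the kidney range of 41.4 to 48.0, and the WT ureter, at 69.2, lay above it. The log2 fold change of kidney against ureter was -0.34 (standard error 0.165, adjusted p = 0.139, edgeR). The value rested on which ureter library was used. Without the library labelled KO it was -0.67 (adjusted p = 0.0201), past the threshold as higher in ureter, and without the WT ureter it was 0.01 (adjusted p = 0.960). In both fits ureter was a single library that was assumed to vary like the kidney libraries. With 4 groups in place of additive terms it was -0.33 (adjusted p = 0.0456), and with library size alone as scaling it was -0.06 (adjusted p = 0.819).

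The shares of the channel subunits did not overlap between the tissues. In kidney, Scnn1b made up 50.7% to 57.1% of the summed TPM of the channel genes, Scnn1g 27.5% to 30.5% and Scnn1a 14.0% to 21.8%. In ureter, Scnn1g made up 49.0% in the library labelled KO and 60.3% in the WT library. Scnn1b made up 45.3% and 35.8%, and Scnn1a 5.78% and 3.92%, so that beta lay close behind gamma in the library labelled KO. The order was beta, gamma, alpha in every kidney library and gamma, beta, alpha in both ureter libraries. The log2 ratio of gamma to beta TPM was -0.93 ± 0.07 (SD, n = 4) in kidney and 0.43 ± 0.45 (SD, n = 2) in ureter. Its exact two-sided permutation p was 0.0667 (also 0.0667 when adjusted over the 3 ratios of subunits), the smallest that 15 arrangements of 4 and 2 libraries allow, so that this design cannot reach 0.05. The ratios of beta to alpha and of gamma to alpha were higher in both ureter libraries than in all kidney libraries, with the same exact permutation p of 0.0667.

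**Figure D2:**
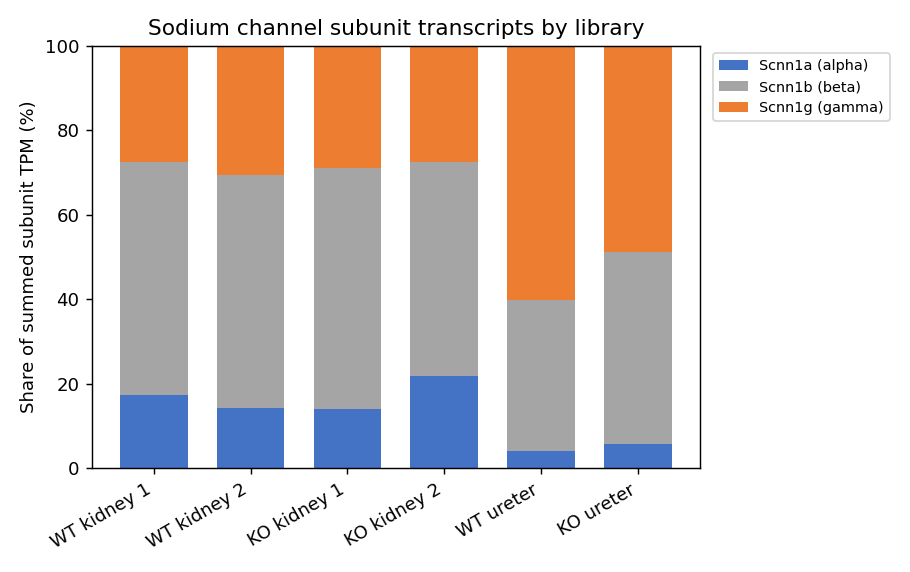
Share of each subunit (y axis, percent of the summed TPM of Scnn1a, Scnn1b and Scnn1g) in the 6 libraries (x axis), as stacked bars from 0 to 100. The gamma share was 27.5% to 30.5% in the kidney libraries and 49.0% and 60.3% in ureter.

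Foxi1 had 748 and 1067 counts in KO kidneys, 1028 and 932 counts in WT kidneys and 0 counts in both ureter libraries. Its kidney mean of 15.0 CPM was at least 189-fold higher than ureter (adjusted p = 8.27e-05, edgeR). Slc26a4 had 126 and 188 counts in KO kidneys, 293 and 207 counts in WT kidneys and 0 counts in both ureter libraries. It was at least 40.1-fold higher in kidney (adjusted p = 0.000711, edgeR), the smallest of the 5 lower bounds, at the lowest level.

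The proton pump subunits Atp6v1b1 and Atp6v0d2 were counted in all kidney libraries, with means of 56.5 and 15.6 TPM. Atp6v1b1, the B subunit isoform of acid-secreting cells, had 4138 and 2224 counts in KO kidneys, 2692 and 3657 counts in WT kidneys and 0 counts in ureter. It was at least 640-fold higher in kidney (adjusted p = 0.000180, edgeR). Atp6v0d2, the restricted isoform of the d subunit, had 997 and 1213 counts in KO kidneys, 1345 and 1069 counts in WT kidneys and 0 counts in ureter, and was at least 230-fold higher in kidney (adjusted p = 4.23e-05, edgeR). Osteoclasts and some macrophages also use Atp6v0d2. Of 11 macrophage and osteoclast markers tested, 7 were lower in kidney (63.6%, against 21.4% of all genes) and none was higher. The summed TPM of the list was 145 to 226 in kidney and 358 and 252 in the ureter libraries. The part of these cells in the Atp6v0d2 counts was not tested.

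The widely used isoforms of the same subunits were counted in both tissues. Atp6v1b2, the other B isoform, had 118 to 123 TPM in kidney and 64.9 and 58.9 TPM in ureter (log2 fold change 0.58, standard error 0.107, adjusted p = 0.00610, edgeR). Atp6v0d1, the other d isoform, was slightly lower in kidney (log2 fold change -0.41, standard error 0.0983, adjusted p = 0.0161, edgeR). Atp6v1b1 made up 24.7% to 39.2% of the TPM of the B pair in kidney, and Atp6v0d2 made up 12.0% to 13.9% of the d pair, whereas both shares were 0% in ureter. Restricted isoforms of the C and G subunits, Atp6v1c2 and Atp6v1g3, were likewise listed at 0 in ureter, and were at least 139-fold and 212-fold higher in kidney. Atp6v0a4, the restricted a isoform, was the exception, with 3.78 TPM in the ureter library labelled KO and 3.995 TPM in the WT ureter against 21.2 to 30.6 TPM in kidney (log2 fold change 2.37, standard error 0.175, adjusted p = 0.000141, edgeR). Over 17 ubiquitous V-ATPase genes the median log2 fold change was 0.01, with 2 higher and 4 lower in kidney and 11 not called. The called genes were 11.8% and 23.5%, against 23.7% and 21.4% of all genes.

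**Figure D3:**
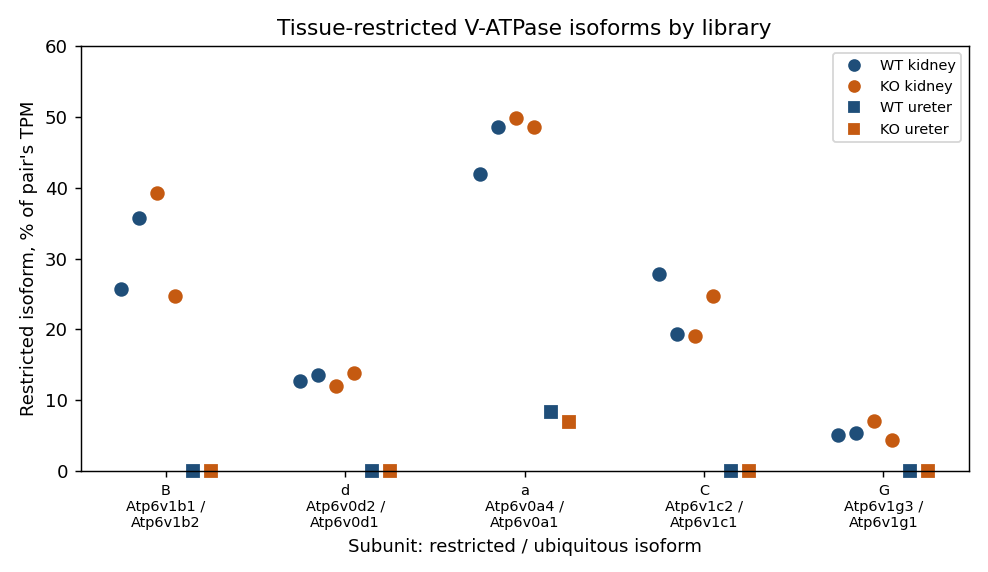
Share of the tissue-restricted isoform in the summed TPM of each isoform pair (y axis, percent) for 5 V-ATPase subunits (x axis), with circles for kidney, squares for ureter, blue for WT and orange for KO. The restricted B isoform lies at 24.7% to 39.2% in kidney and at 0% in ureter, and the a isoform Atp6v0a4 is the one counted in ureter, at 6.95% and 8.32%.

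Slc4a1 was the intercalated cell gene that ureter libraries counted. It had 336 and 225 counts in KO kidneys, 348 and 386 counts in WT kidneys, 22 counts in the ureter library labelled KO and 110 counts in the WT ureter. Its mean was 3.57-fold higher in kidney (log2 fold change 1.94, standard error 0.430, adjusted p = 0.0123, edgeR). Without the library labelled KO, the value was 1.39 and the call was lost (adjusted p = 0.0506), again with a single ureter library. Slc4a1 also encodes band 3 of red blood cells, from an upstream promoter, and a gene table does not separate the transcripts. Alas2, a heme synthesis gene of red blood cell precursors, had 9.08 CPM in the ureter library labelled KO and 20.7 CPM in the WT ureter, against 9.23 to 18.8 CPM in kidney. The globin genes Hba-a1, Hba-a2, Hbb-bs and Hbb-bt together had 655 and 1380 CPM in the same ureter libraries and 652 to 840 CPM in kidney. Their separate counts swap between near-identical copies and are uncertain. Of 15 red blood cell markers tested, 2 were higher and 2 lower in kidney (13.3% each, against 23.7% and 21.4% of all genes). The summed TPM of the list was 1477 and 3634 in the ureter libraries and 1992 to 2717 in kidney. The part of red blood cells in the Slc4a1 counts was not tested. Slc4a2, the anion exchanger that most cells use, did not pass the test (log2 fold change 0.26, standard error 0.107, adjusted p = 0.0887, edgeR).

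Further genes of the same pathways were counted by list, without the 9 genes. Of 22 tested intercalated cell genes, 20 were higher in kidney (90.9%, against 23.7% of all genes) and none was lower. Both ureter libraries listed 9 of them at 0, against 5.16% of all genes, and these could only be called higher. The median log2 fold change was 5.48 with genes at 0 set to their bound. In the same measure it was 7.34 for proximal tubule and podocyte markers and 7.07 for loop of Henle and distal tubule markers. A shift of this kind was thus not particular to intercalated cell genes. Carbonic anhydrases Car2 (log2 fold change 3.86, standard error 0.258) and Car15 (4.66, standard error 0.209) were higher in kidney, and the ammonia transporter gene Rhcg was at least 764-fold higher.

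Of 16 genes around vasopressin tested, 5 were higher and 5 lower in kidney (31.2% each, against 23.7% and 21.4% of all genes), and the median was -0.05, against 0.08 over all genes. Aqp2, the water channel that vasopressin controls, had 388 to 569 TPM in kidney and was listed at 0 in both ureter libraries, at least 4040-fold higher in kidney. Aqp3, the basolateral water channel of principal cells, was lower in kidney, with 75.9 to 97.8 TPM against 438 TPM in the ureter library labelled KO and 316 TPM in the WT ureter (log2 fold change -2.52, standard error 0.153, adjusted p = 7.16e-05, edgeR). Gnas, the stimulatory G protein through which the V2 receptor signals, was lower in kidney as well (log2 fold change -1.04, standard error 0.0974, adjusted p = 0.000389, edgeR). Vamp2, a vesicle protein, did not pass the test (log2 fold change 0.07, standard error 0.153).

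Of 18 regulators and partners of the sodium channel, 10 were higher in kidney and 1, the potassium channel gene Kcnma1, was lower, with a median of 0.90. These were 55.6% and 5.56%, against 23.7% and 21.4% of all genes. Kcnma1 was named after its values were seen. The sodium pump beta subunit gene Atp1b1 was higher in kidney by 2.27 on the log2 scale (standard error 0.201), and the pump regulator Fxyd2 by 7.31 (standard error 0.154). These genes serve most tubule segments. Hsd11b2, which protects the mineralocorticoid receptor from glucocorticoids, was 1.07 higher on the log2 scale (standard error 0.264, adjusted p = 0.0180, edgeR). Sgk1, the aldosterone-induced kinase, was 0.74 higher on the log2 scale (standard error 0.225, adjusted p = 0.0379, edgeR). The tissues overlapped for Sgk1, with 97.6 CPM in WT kidney replicate 2 and 135.7 CPM in the ureter library labelled KO. Nr3c2, the receptor itself, was low in all libraries, at 0.726 to 2.60 TPM, and did not pass the test (log2 fold change -0.09, standard error 0.526).

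Of 23 genes of the ureteric bud and collecting duct epithelium, 12 were higher and 9 lower in kidney. These were 52.2% and 39.1%, against 23.7% and 21.4% of all genes. Cdh16, a cadherin of renal tubules, was 8.84 higher on the log2 scale (standard error 0.735), while the simple epithelial keratins Krt8, Krt18 and Krt19 were lower, with log2 fold changes of -3.38, -3.68 and -5.27. The uroplakin gene Upk1b, a marker of urothelium, had 17.5 to 19.8 TPM in kidney and 1978 and 1877 TPM in the ureter libraries. Of 16 further SLC4 and SLC26 exchangers tested, 9 were higher and 2 lower in kidney (56.2% and 12.5%, against the same shares of all genes). Slc4a9, the type B cell exchanger AE4, had 20.8 to 29.0 TPM in kidney and 0.234 and 0.848 TPM in ureter (log2 fold change 5.20, standard error 0.407, adjusted p = 0.000182, edgeR).

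**Figure D4:**
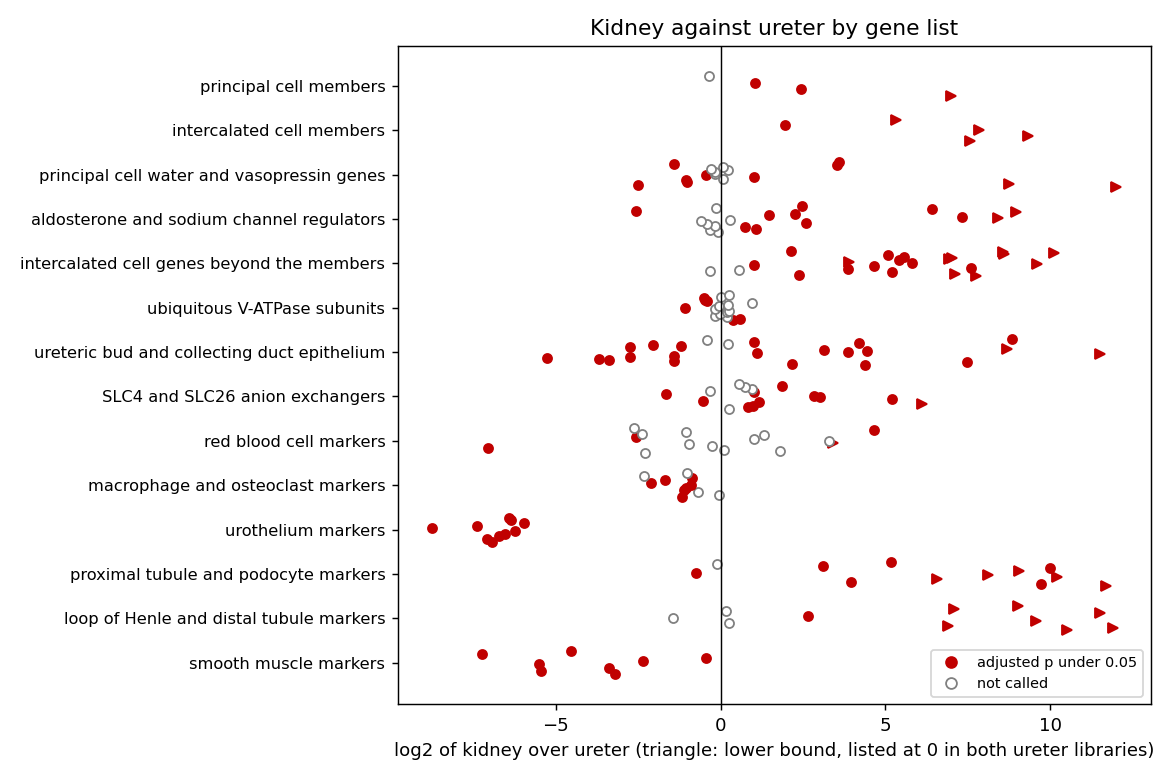
Log2 fold change of kidney over ureter (x axis) for the members and the genes of 12 lists (y axis), with red marks for an adjusted p under 0.05, open marks for genes not called and triangles for lower bounds of genes listed at 0 in both ureter libraries. Of the 22 intercalated cell genes 20 are called to the right of 0, while 5 vasopressin genes are called on each side.

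KO kidneys were compared with WT kidneys in the 4 kidney libraries. None of the 9 genes passed the test, each with an adjusted p of 1.0 (edgeR, 16481 genes), and none had an unadjusted p under 0.05. Over all genes 2 passed, 0.0121% of those tested, 1.38% had an unadjusted p under 0.05, and the Wald test of DESeq2 called 46 genes and none of the 9. Their median log2 fold change was 0.03, against 0.00 over all genes. The genotypes overlapped for 7 of the genes. For Avpr2 and Slc26a4 both KO kidneys lay below both WT kidneys, as did 13.5% of all genes tested.

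Avpr2 had 6.83 and 10.03 CPM in KO kidneys and 13.0 and 10.2 CPM in WT kidneys. The log2 fold change was -0.46 (standard error 0.259, unadjusted p = 0.127, adjusted p = 1.0, edgeR). The lowest value came from KO kidney replicate 1, the library with high Xist, and Avpr2 lies on the X chromosome. Leaving out that library gave -0.20, leaving out WT kidney replicate 1 gave -0.27 and leaving out KO kidney replicate 2 gave -0.77. The part of the Xist difference in these values was not tested. Slc26a4 had 2.08 and 3.17 CPM in KO kidneys and 4.12 and 3.40 CPM in WT kidneys (log2 fold change -0.51, standard error 0.344, unadjusted p = 0.184, adjusted p = 1.0, edgeR). The same library was lowest, and the fold change was -0.24 without it and -0.855 without KO kidney replicate 2.

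For the rest the genotypes were mixed. Scnn1b differed by 0.08 (standard error 0.127) and Scnn1g by 0.09 (standard error 0.131) on the log2 scale. Foxi1 differed by 0.03 (standard error 0.222) and Atp6v0d2 by 0.02 (standard error 0.175). Scnn1a differed by 0.32 with a standard error of 0.303, Slc4a1 by -0.26 with a standard error of 0.298, and Atp6v1b1 by 0.12 with a standard error of 0.330. The spread of these 3 genes lay within the genotypes. Atp6v1b1 had 68.4 CPM in KO replicate 1 and 59.99 CPM in WT replicate 2 but 37.4 CPM in KO replicate 2 and 37.8 CPM in WT replicate 1. Scnn1a ran the other way, with 25.6 and 22.7 CPM in the former libraries and 44.3 and 33.6 CPM in the latter. The summed TPM of 12 proximal tubule and podocyte markers was 952 and 894 in the former and 727 and 756 in the latter, and its part in these values was not tested.

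**Figure D5:**
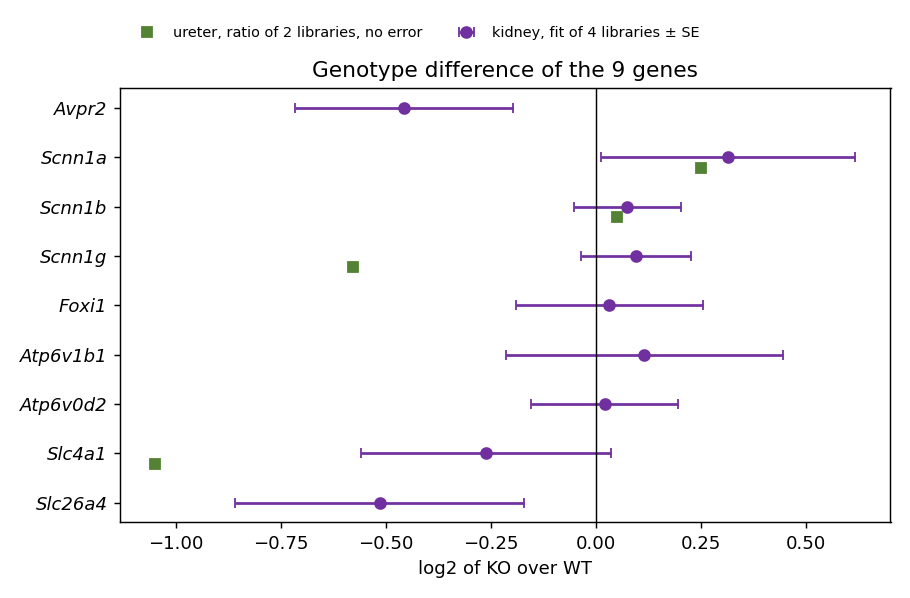
Log2 of KO over WT (x axis) for the 9 genes (y axis), with circles and bars for the kidney fit of 4 libraries and its standard error, and squares for the ratio of the 2 ureter libraries, which has no error. Kidney values run from -0.51 for Slc26a4 to 0.32 for Scnn1a, and none passed the test.

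None of the list genes passed the test between KO and WT kidney. Among the 18 regulators of the sodium channel, 4 had an unadjusted p under 0.05, against 1.38% of all genes. The list was chosen with earlier results of these data known, so no conclusion is drawn from this count. The median log2 fold change of the 18 was 0.06, against -0.004 over all genes. Sgk1 had 186 and 285 CPM in KO kidneys and 144 and 97.6 CPM in WT kidneys (log2 fold change 0.96, standard error 0.258, adjusted p = 1.0, edgeR). The others, Usp2, Per1 and Kcnj1, were named after their values were seen. Usp2, a ubiquitin protease, and Per1, a clock gene, had log2 fold changes of 0.86 (standard error 0.218, adjusted p = 1.0, edgeR) and 1.24 (standard error 0.183, adjusted p = 0.421, edgeR). Kcnj1, the potassium channel ROMK, had -0.50 (standard error 0.169, adjusted p = 1.0, edgeR). For each of these genes the KO and WT kidneys did not overlap. This adds no support, since the genes were picked by p-value in the same libraries. Over all genes tested KO lay above WT for 12.8% and below for 13.5%. What underlies these values was not tested.

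In ureter only 4 of the genes were counted, and with 1 library per genotype there was no test. Scnn1g had 46.3 CPM in the library labelled KO and 69.2 CPM in the WT ureter, and their log2 ratio was -0.58. Scnn1a (0.25) and Scnn1b (0.05) had ratios near 0, and that of Scnn1b was -0.14 with library size alone as scaling. Slc4a1, with 22 and 110 counts, had -1.05, the one ratio past 2-fold. Of 16117 genes with at least 10 counts in either library, 10.2% were past 2-fold. Alas2 and the summed globin genes, given above, were also lower in the library labelled KO.

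The difference of the genotype effect between the tissues was tested for the same 4 genes, on the assumption that lone ureter libraries vary like the kidney libraries, since the spread in this fit comes from kidney alone. Its p-values hold only as far as that assumption does. None passed the test, as against 19 of 17557 genes (0.108%). Scnn1g had -0.68 (standard error 0.213, unadjusted p = 0.0197, adjusted p = 0.303, edgeR), and 12.4% of all genes had an unadjusted p under 0.05. Slc4a1 had -1.27 (standard error 0.607, adjusted p = 0.470), Scnn1a -0.04 (standard error 0.570) and Scnn1b -0.02 (standard error 0.227), the last 3 with adjusted p from 0.470 to 1.0 (edgeR).

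The genes whose pattern over the 6 libraries was most like these groups were sought among 14589 genes with a mean of at least 1 CPM. The measure was Pearson's r of log2(CPM + 0.5) with the mean of the standardised values of the group, which is a description over 6 libraries that fall into 2 tissues. Nearest to the mean of the channel subunits, which differed in pattern, were Cwf19l1 (r = 0.997), Ly6g5b (0.996), Trim41 (0.996), Rnf40 (0.996) and Nos3 (0.995). Nearest to the intercalated cell genes were Cdc25c (r = 0.9996), Aifm3 (0.999), B3galt5 (0.999), Hs3st6 (0.999) and Uggt2 (0.999). Cdc25c had 22.7 to 25.4 CPM in kidney and 7.33 and 8.55 CPM in the ureter libraries, and B3galt5 had 11.2 to 14.2 CPM in kidney and 0 and 0.272 CPM in ureter.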

How the data were processed

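Bulk RNA-seq of mouse kidney and ureter at PN1 was analysed. The methods name Cutadapt, STAR and Cufflinks with GRCm39, whereas the submitters' processing notes list Trimmomatic 0.38, HISAT2 2.1.0, StringTie 1.3.4b and mm10, so the pipeline behind the table is uncertain. The authors deposited an estimated count (a whole number, not normalized), FPKM and TPM for 24532 genes in 6 libraries, and 27 symbols that read as dates were put back through their gene numbers. The deposited FPKM was used only for alternatives and the deposited TPM for levels between genes. Coordinates are those of GRCm38 annotation and were used only to describe the genes.

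The tool was edgeR 4.0.16 in R 4.3.3, with filterByExpr, TMM factors and its quasi-likelihood test, and p-values were adjusted by Benjamini-Hochberg over all genes tested (threshold 0.05). Terms were genotype and tissue over 6 libraries, genotype over 4 kidney libraries, and 4 groups for the difference of effects. This test was planned for counts of reads and was applied to the estimates as they stand. Standard errors are approximate, from the size of the log2 fold change and the F statistic. For ureter, CPM + 0.5 was taken with TMM factors of the pair and given as a log2 ratio. Fits were also run on simulated data, with less dispersion than the common dispersion of these libraries. Those runs therefore do not show how the fits behave at the spread seen here. Alternatives used DESeq2 1.42.0, limma 3.58.1 on log2(FPKM + 1) and log2(FPKM + 0.1), other scalings and filters, other terms, a replicate block and leaving out each library. Kidney replicate numbers did not pair the libraries (r = -0.19 over 16468 genes between the replicate differences of KO and WT).

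The 9 genes and the 12 gene lists were chosen with earlier results of these data known. The genes named from a list are its 4 highest by mean TPM over 6 libraries, besides Atp6v1b2, Atp6v0d1, Slc4a2, Atp6v1g3, Atp6v0a4, Atp6v1c2, Aqp2, Nr3c2, Hsd11b2, Umod, Upk1b, Ahnak and the 5 genes of most like pattern to each group, and only those that bear on a result are given, while some list genes are not reported here. Alas2, Xist and Rn45s fall outside this rule and were chosen after seeing their values. The proximal tubule and podocyte list had 10 genes higher in kidney and 1 lower of 12 tested.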

Additional observations from a re-analysis of the deposited data

How the results depend on the processing

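The 8 genes called higher in kidney stayed called with every alternative in which they were tested, except Slc4a1 without the ureter library labelled KO. A filter of at least 10 counts in every library removed the 5 genes listed at 0 in ureter and left 3 calls. Scnn1g passed only without the library labelled KO, with 4 groups and with WT libraries only (-0.66, adjusted p = 0.0169), and in the first and the last of these ureter was a single library assumed to vary like the kidney libraries. No alternative called any of the genes between KO and WT kidney or for the difference of effects. Library size alone moved the median of all genes from 0.08 to 0.37 (log2), with 6108 genes higher and 2371 lower in kidney (72.0% higher) against 3992 and 3603 (52.6% higher), and limma on log2(FPKM + 1) and log2(FPKM + 0.1) gave 6360 and 6557 higher. With only the kidney libraries whose column names share a number with a ureter library, chosen after seeing the data, 2301 were higher. Leaving out libraries gave 2710 to 3573 higher and 2448 to 3320 lower.

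Between KO and WT kidney, all-gene calls were 2 in the fit reported, 46 with DESeq2, 1 with at least 10 counts, 0 with either limma fit and 3 to 87 without single libraries. The replicate block gave 0 calls (edgeR), and changed no call of the 9 genes. The crossed replicate block, chosen after seeing the data, gave 1 call. The difference of effects had 19 calls, 491 with DESeq2, 0 with either limma fit and 4 to 270 without single kidney libraries. It was not fitted with a block, although the column names of the ureter libraries share numbers with kidney libraries of the same genotype. The causes were not tested.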
